A study of Mus musculus with 18 samples.

Results

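The libraries labelled Zmat1 knockout (KO) were compared with those labelled wild type (WT) 1 day after RANKL, in bone marrow-derived macrophages (BMDMs) on their way to becoming osteoclasts. The comparison held 6 of the 18 RNA-sequencing libraries of the series, 3 labelled KO and 3 labelled WT, chosen by label and day alone. The mice carried a global Zmat1 knockout on a C57BL/6 background or were wild-type littermates from crosses of heterozygotes, and were 4 to 8 weeks old. Marrow cells were grown with the growth factor M-CSF and then with M-CSF and RANKL for 1 day. The other 12 libraries were from such cultures before RANKL (day 0) and after 3 days of it, 3 per label and day. A global knockout removes the gene from every cell in the culture, so that no cell type can be singled out by the design.

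RANKL is the cytokine that commits macrophages to the osteoclast fate. It binds its receptor RANK and signals through TRAF6 and NF-κB to Fos and then to Nfatc1, the transcription factor that turns on the genes of cell fusion and bone resorption. The Hippo pathway is a kinase cascade in which MST and LATS kinases restrain the coactivators YAP and TAZ, which act through TEAD factors on targets such as Cyr61 and Ctgf. Zmat1 encodes a zinc finger protein. The comparison addressed which genes differ between the labels early in osteoclast formation.

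The titles of the libraries were written in 2 styles, and the styles were not evenly spread. A double hyphen stood in the titles of KO libraries 1 and 2 and of 1 WT library, and a single hyphen in those of KO library 3 and of the other 2 WT libraries. Both the double-hyphen WT library and 1 of the single-hyphen ones carried the number 1, and the third carried the number 2. In what follows, 6 values are given in the order KO library 1, KO library 2, KO library 3, double-hyphen WT library, single-hyphen WT library 1 and WT library 2. Levels are in CPM, read counts scaled to a common library size with TMM factors, and a log2 ratio is the fitted log2 fold change of KO over WT. Each library held 13789775 to 17559958 counts, and 14241 genes were tested. Nothing in the labels says that the 3 libraries of a group came from separate mice, so that p-values measure the spread between these libraries.

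Across all genes tested, log2 CPM correlated at 0.982 between KO libraries 1 and 2 and at 0.982 between the single-hyphen WT libraries, pairs that share both label and title style. The double-hyphen WT library correlated more closely with KO libraries 1 and 2 (0.954 and 0.961) than with the other WT libraries (0.933 and 0.944). KO library 3 likewise correlated slightly more closely with the single-hyphen WT libraries (0.953 and 0.956) than with the other KO libraries (0.951 and 0.949). Mitochondrial transcripts, 9 genes of the mitochondrial genome, summed to 30800 and 37200 CPM in KO libraries 1 and 2, to 15900 CPM in KO library 3, to 39900 CPM in the double-hyphen WT library, and to 16900 and 16600 CPM in the single-hyphen WT libraries. These sums followed the style and not the label. With style in the model, 3309 of the 14241 genes differed between the styles at an adjusted p under 0.05, 1416 with the double-hyphen libraries higher and 1893 with them lower (edgeR quasi-likelihood test). On the first principal component, with 55.7% of the variance, the day 3 libraries lay apart from the others, and the day 0 libraries lay between -117 and -27.8. All 3 double-hyphen day 1 libraries lay within that day 0 range, KO libraries 1 and 2 at -32.5 and -37.8 and the WT library at -90.4, and the single-hyphen day 1 libraries lay between -16.7 and 5.96. On the second component, with 13.3% of the variance, the day 1 libraries lay apart by label. KO libraries 1 to 3 lay at -20.8, -15.2 and -46.5. The double-hyphen WT library lay at 28.9, beside the single-hyphen WT libraries at 32.9 and 28.9. On day 0 the labels overlapped on this component, with WT library 3 at -34.8 and the KO libraries from -62.2 to -3.46. The double-hyphen WT library had the lowest level of the 6 in 3293 genes (23.1%).

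Zmat1 (ENSMUSG00000052676, GRCm38 chromosome X, 134971372 to 135009209) was the gene named in the labels and was counted in all 6 libraries. The counts were 63, 74 and 93 in the libraries labelled KO and 48, 59 and 64 in those labelled WT. The levels were 4.04, 5.30 and 6.47 CPM against 4, 3.55 and 4.41 CPM, and the lowest KO library lay below the highest WT library. Their log2 ratio was 0.40 (SE 0.406, edgeR adjusted p = 0.821) and 0.27 with title style (SE 0.377, adjusted p = 0.799). Zmat1 counts therefore did not follow the labels, and every direction below is given by label. The table gives counts per gene and not per exon, so that it does not show whether a deleted part of the gene was covered.

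Of the 50 genes within 1 Mb of Zmat1, itself included, 21 had no count in the 6 libraries, and 22 were tested. Their log2 ratios ran from -0.49 to 1.27, 15 positive and 7 negative, and edgeR called 0 of them in either fit. Over all genes tested, 46.7% of the log2 ratios were positive. Gprasp1, which encodes a protein that sorts G protein-coupled receptors, measured 17.2, 15.7 and 18.1 CPM against 11.3, 13.8 and 13.9 CPM (log2 ratio 0.39, unadjusted p = 0.0248, adjusted p = 0.582). Sytl4, a gene of vesicle exocytosis, had 1.60, 1.07 and 1.67 CPM against 0.666, 0.661 and 0.620 CPM (log2 ratio 1.15, unadjusted p = 0.00343, adjusted p = 0.437). Without title style these 2 of the 22 passed an unadjusted p of 0.05, and with it Armcx4 (1.59, unadjusted p = 0.0229) and Armcx2 (1.33, unadjusted p = 0.0164), of a family of armadillo repeat genes, passed as well, all 4 higher with the KO label. Of all 14241 genes tested, 1125 passed that unadjusted p without title style, 553 of them higher. With title style 2103 passed, 1401 of them higher. The Btk kinase gene, a part of the costimulatory pathway of osteoclasts that lies in this window, had a log2 ratio of -0.16 (SE 0.135, adjusted p = 0.782).

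At an adjusted p under 0.05, 16 genes differed between the labels on day 1 without title style (0.112% of the genes tested, edgeR). KO was the higher label in 9 and the lower in 7. With title style in the model, 31 genes differed, 21 higher and 10 lower (0.218%). All 16 were among the 31, each with the same sign in both fits. In the 16 genes the 3 KO libraries did not overlap the 3 WT libraries. The genes were chosen by p between these same libraries, so that this is no separate evidence. Over all genes tested the share without overlap was 12.6%. The KO libraries all lay above the WT libraries in 6.83% of genes and all below in 5.82%. An unadjusted p under 0.05 was met by 553 genes higher (3.88%) and 572 lower (4.02%) without title style, and by 1401 higher (9.84%) and 702 lower (4.93%) with it. By the study's threshold, which asks for an unadjusted p below 0.05 and a fold of more than 1.5 or less than 0.66, 475 genes were higher and 195 lower without title style, and 1270 were higher and 176 lower with it. The median log2 ratio over all genes was -0.02 without title style and -0.03 with it.

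**Figure D1:**
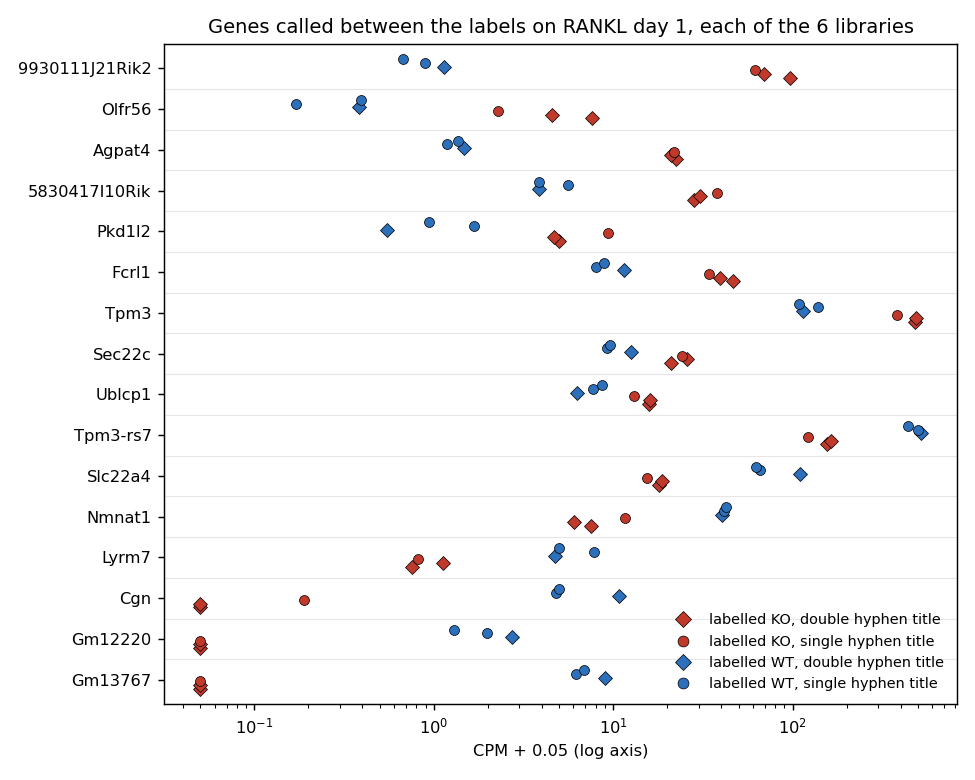
CPM + 0.05 on a log axis in each of the 6 day 1 libraries (red KO, blue WT, diamonds double-hyphen and circles single-hyphen titles), for the 16 genes that differed between the labels without title style at an adjusted p under 0.05. In every gene the red and the blue points are apart, and in most the diamonds and circles of one colour lie close together.

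Of the 16 genes, 9930111J21Rik2 and Agpat4 had the smallest adjusted p-values. 9930111J21Rik2 (chromosome 11, 49015874 to 49051242), a gene among the immunity-related GTPases Tgtp1, Tgtp2 and Ifi47, measured 97.0, 69.0 and 61.5 CPM in the libraries labelled KO and 1.08, 0.841 and 0.620 CPM in those labelled WT (log2 ratio 6.48, SE 0.370, adjusted p = 4.31e-07). Agpat4 (chromosome 17, 12118704 to 12219645), an acyltransferase that makes the membrane lipid precursor phosphatidic acid, measured 22.2, 21 and 21.8 CPM against 1.42, 1.14 and 1.31 CPM (log2 ratio 4.07, SE 0.265, adjusted p = 1.35e-06). The spread within a label was far below the gap in both genes. With title style the log2 ratios were 6.50 and 4.04.

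Of the 16 genes, 6 lay on chromosome 11 between 44454571 and 54860916, a span of 10.4 Mb with 90 genes tested, and 4 on chromosome 3 between 87376387 and 94786492, a span of 7.41 Mb with 118 genes tested. The other 6 lay on other chromosomes. Both stretches were noticed after the values were seen.

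In the chromosome 11 stretch, KO was the higher label in 3 genes and the lower in 3. Beside 9930111J21Rik2, the higher ones were Olfr56 and Ublcp1. Olfr56, an olfactory receptor gene, measured 7.56, 4.51 and 2.22 CPM against 0.333, 0.12 and 0.344 CPM (log2 ratio 4.15, adjusted p = 0.0416). Its locus, 48978889 to 49135387, overlaps 9 other genes, of which 6 were tested and which include 9930111J21Rik2 on the other strand. Whether the counting used strand was not stated in the sources used here, and reads of overlapping genes may be shared. Ublcp1, a phosphatase that acts on the proteasome in the nucleus, measured 15.7, 16 and 13.1 CPM against 6.25, 7.69 and 8.61 CPM (log2 ratio 0.99, adjusted p = 0.0173).

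The 3 lower genes of that stretch were Slc22a4, Lyrm7 and the pseudogene Gm12220. Slc22a4, a transporter of the antioxidant ergothioneine, measured 17.9, 18.7 and 15.4 CPM against 110, 65.3 and 62.1 CPM (log2 ratio -2.19, SE 0.245, adjusted p = 0.000461). Lyrm7, an assembly factor of respiratory complex III, had 0.705, 1.07 and 0.765 CPM against 4.66, 7.81 and 4.96 CPM (log2 ratio -2.77, SE 0.360, adjusted p = 0.00256). Gm12220 was at 0 in the libraries labelled KO and at 2.67, 1.92 and 1.24 CPM in those labelled WT, at least 9.47-fold lower with a floor of 3 counts in each library. In each of the 3, every KO library lay below every WT library.

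Neighbours of 9930111J21Rik2 in the same stretch were not called. Tgtp1, an interferon-induced GTPase, measured 3.14, 1.29 and 1.39 CPM against 19.9, 16.3 and 13.3 CPM, with a log2 ratio of -3.08 (SE 0.566, adjusted p = 0.0594) and of -3.13 with title style (adjusted p = 0.0519). Its close relative Tgtp2 measured 78.8, 30.8 and 18.6 CPM against 17.7, 19.5 and 16.7 CPM (log2 ratio 1.25, adjusted p = 0.621), and Ifi47 had a log2 ratio of 0.04 (adjusted p = 0.99). Tgtp1 and Tgtp2 are near-identical genes, so that counts of reads shared between them are uncertain. 9930111J21Rik1, the partner gene of 9930111J21Rik2, measured 33.0, 20.5 and 28.4 CPM against 47.4, 35.5 and 47.5 CPM (log2 ratio -0.67, adjusted p = 0.668).

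In the chromosome 3 stretch the called genes were Fcrl1, the pseudogene 5830417I10Rik, Tpm3 and Cgn. Fcrl1, a receptor-like gene known from B cells, measured 46.6, 39.1 and 34.3 CPM against 11.5, 7.99 and 8.89 CPM (log2 ratio 2.08, SE 0.366, adjusted p = 0.0416). The summed level of 10 B cell markers was 288, 308 and 82.8 CPM against 115, 23.2 and 73.4 CPM, and its part in the Fcrl1 difference was not tested. In bulk samples fewer cells of a type and less RNA per cell cannot be told apart. 5830417I10Rik, which overlaps 1500004A13Rik on the other strand, measured 28.3, 30.4 and 37.7 CPM against 3.83, 5.53 and 3.79 CPM (log2 ratio 2.87, SE 0.210, adjusted p = 4.66e-06). Cgn, which encodes the tight junction protein cingulin, was at 0, 0 and 0.139 CPM in the libraries labelled KO and at 10.7, 4.75 and 4.96 CPM in those labelled WT, at least 33.2-fold lower with the same floor.

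Trim46, an E3 ubiquitin ligase gene that the study followed by quantitative PCR, lies in this stretch too (89234177 to 89246309). It measured 1.92, 0.930 and 1.25 CPM in the libraries labelled KO and 0.333, 0.781 and 0.895 CPM in those labelled WT, from 13 to 30 counts against 4 to 13 counts. The KO libraries were all above the WT libraries, and the highest WT library was close to the lowest KO library. The log2 ratio was 1.01 (SE 0.626, adjusted p = 0.703), and 1.39 with title style (SE 0.631, adjusted p = 0.326).

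Tpm3, a tropomyosin that lines actin filaments, and its copy Tpm3-rs7 went opposite ways. Tpm3 (chromosome 3) measured 483, 485 and 383 CPM in the libraries labelled KO and 114, 137 and 108 CPM in those labelled WT, and Tpm3-rs7 (chromosome 14, 113314608 to 113316713) 155, 164 and 122 CPM against 522, 501 and 438 CPM. Their log2 ratios were 1.91 (SE 0.164) and -1.73 (SE 0.148), both at an adjusted p = 2.42e-05. The coding sequences of Tpm3 transcript Tpm3-201 and of the copy, 747 bases each, are identical at 744 of them (99.6%), in the GRCm38 annotation. Tpm3-201 was chosen as the Tpm3 transcript of that coding length with the fewest differences from the copy. The copy has 1 coding exon where Tpm3-201 has 8. Bases 61 to 140 of both coding sequences hold all 3 differences, G72A, G98A and G127A with the base of Tpm3 first and positions counted from the first base of the start codon. They are shown because reads of these 2 coding sequences that miss the differences cannot be assigned to either gene by sequence. Capitals mark the differing bases.
Tpm3 (chromosome 3, plus strand, exons between 90079792 and 90086453): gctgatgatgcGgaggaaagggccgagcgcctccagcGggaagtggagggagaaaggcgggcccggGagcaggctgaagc
Tpm3-rs7 (chromosome 14, plus strand, 113314736 to 113314815): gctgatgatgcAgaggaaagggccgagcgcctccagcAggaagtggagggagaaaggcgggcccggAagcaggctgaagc
The sum of both genes was 638, 649 and 505 CPM in the libraries labelled KO and 635, 638 and 546 CPM in those labelled WT. Its log2 ratio was -0.02 (SE 0.145, adjusted p = 0.978, edgeR with the counts of both genes added). Tpm3 took 74.7% to 75.8% of the sum in the libraries labelled KO and 17.9% to 21.5% in those labelled WT. The share followed the label, and no difference in the sum was detected.

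The remaining called genes lay elsewhere in the genome. Pkd1l2, of the polycystin family, measured 4.93, 4.65 and 9.25 CPM against 0.5, 1.62 and 0.895 CPM (log2 ratio 2.61, adjusted p = 0.0416), and Sec22c, of transport between endoplasmic reticulum and Golgi, measured 21, 25.7 and 24 CPM against 12.5, 9.20 and 9.51 CPM (log2 ratio 1.18, adjusted p = 0.00614). Nmnat1, which makes NAD in the nucleus, measured 7.43, 6.01 and 11.6 CPM against 40.6, 41.4 and 42.3 CPM (log2 ratio -2.31, SE 0.229, adjusted p = 0.00011). Gm13767, a pseudogene, was at 0 in the libraries labelled KO and at 8.91, 6.13 and 6.82 CPM in those labelled WT, at least 35.5-fold lower. None of the called genes is on the lists of osteoclast, Hippo, inflammatory or metabolic genes described below.

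Most of these 16 differences were also called before RANKL and 3 days after it. The sign was the same on days 0, 1 and 3 for all 16, 14 were called on day 0 and 13 on day 3. The 13 called on day 3 were also called on day 0. Of all 14241 genes tested, 17 were called on day 0 and 20 on day 3. In 12 of the 16 the 9 libraries labelled KO and the 9 labelled WT did not overlap. The genes had been chosen on the day 1 libraries among these. Over all genes tested, neither the share without such overlap nor the share with 1 sign on all 3 days was counted. Agpat4 was at 15.1 to 19.5 CPM in the libraries labelled KO and 0.5 to 1.32 CPM in those labelled WT on day 0, and at 36.3 to 57.4 CPM against 3.14 to 3.77 CPM on day 3. Lyrm7 and Fcrl1 were called on day 1 and on neither other day, with log2 ratios of -1.66 and 1.35 on day 0 and of -1.68 and 0.43 on day 3. The test of the difference between days, however, called 0 genes in edgeR, both for day 1 against day 0 (527 genes at an unadjusted p under 0.05) and for day 1 against day 3 (363 genes). No gene was thus shown to differ between the labels on day 1 in another way than on the other days.

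Of the 15 genes called with title style alone, 12 were higher with the KO label and 3 lower. All but 3 had KO libraries that did not overlap the WT libraries, though the genes were chosen on these same libraries. Of the 15, 11 differed between the styles themselves, against 23.2% of all genes tested. A call made only with style in the model favours such genes, so that this is no separate result. Without style edgeR called 0 of them on days 0 and 3, as on day 1. The labels on those other days were not compared with style in the model, so that this does not set day 1 apart. The sign of 12 of the 15 was the same on all 3 days, and the share of all genes tested with 1 sign was not counted. Gdf3, a ligand of the TGF-β family, measured 58.8, 142 and 55.3 CPM against 18.7, 8.23 and 6.82 CPM (log2 ratio with title style 2.61, SE 0.446, adjusted p = 0.0324, and 2.93 without it, adjusted p = 0.167). Col15a1, a basement membrane collagen, measured 9.68, 15.2 and 18.8 CPM against 1.08, 2.34 and 2.00 CPM (3.5 with title style, SE 0.557, adjusted p = 0.0182). Both genes had each KO library above each WT library.

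The receptor gene Notch3 measured 11.7, 9.09 and 14.7 CPM against 0.666, 2.46 and 4.55 CPM, with log2 ratios of 3.13 with title style (adjusted p = 0.044) and 2.19 without it (adjusted p = 0.521). Efnb2, which encodes the ephrin-B2 ligand, measured 5.96, 6.44 and 12 CPM against 0.750, 4.15 and 3.86 CPM (2.18 with title style, adjusted p = 0.0447). In both, the double-hyphen WT library was the lowest of the 6. Frzb, a secreted antagonist of Wnt, was at 0.833, 0.215 and 1.25 CPM in the libraries labelled KO and at 0 in those labelled WT, at least 3.61-fold higher. Pde10a, a cyclic nucleotide phosphodiesterase, had 0.449, 1.07 and 1.46 CPM against 0.167, 0.301 and 0.138 CPM (2.45 with title style, adjusted p = 0.044). Both were at low counts in every library.

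Cish, an inhibitor of cytokine receptor signalling, measured 1.92, 2.29 and 5.01 CPM against 1.08, 0.962 and 0.964 CPM (1.74 with title style, adjusted p = 0.044), and Csrp2, a LIM domain protein gene, 18.4, 12.3 and 38.8 CPM against 5.25, 10.1 and 11.3 CPM (1.74, adjusted p = 0.00951). Tln2, which encodes talin 2, measured 10.4, 10.2 and 40.8 CPM against 1.67, 18.2 and 14.7 CPM. Its libraries overlapped between the labels, and its log2 ratio was 0.82 without title style (adjusted p = 0.817) and 1.80 with it (adjusted p = 0.032). Nhsl1 and Plcd1 overlapped likewise. Pcdhga3, of the clustered protocadherins, measured 0.961, 1.22 and 9.11 CPM against 0.0833, 0.421 and 0.344 CPM, and its locus overlaps 29 other genes, so that its counts are uncertain.

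The 3 lower genes with title style were Akr1b3, Kifc3 and Sntb2. Akr1b3, aldose reductase, measured 34.7, 34.7 and 36.4 CPM against 55.6, 55.1 and 47.2 CPM (log2 ratio -0.58 in both fits, adjusted p = 0.0506 without title style and 0.044 with it). Sntb2, a syntrophin of the membrane skeleton, measured 24.1, 20.4 and 29.3 CPM against 49.4, 46.8 and 46.3 CPM (-0.89 with title style, adjusted p = 0.044, and -0.95 without it, adjusted p = 0.0654). Kifc3, a kinesin motor, measured 26, 23.7 and 35.6 CPM against 38.6, 50.4 and 53.0 CPM, with log2 ratios of -0.57 with title style (adjusted p = 0.00988) and -0.74 without it (adjusted p = 0.366). Akr1b3 and Sntb2 were thus close to the threshold in both fits.

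**Figure D2:**
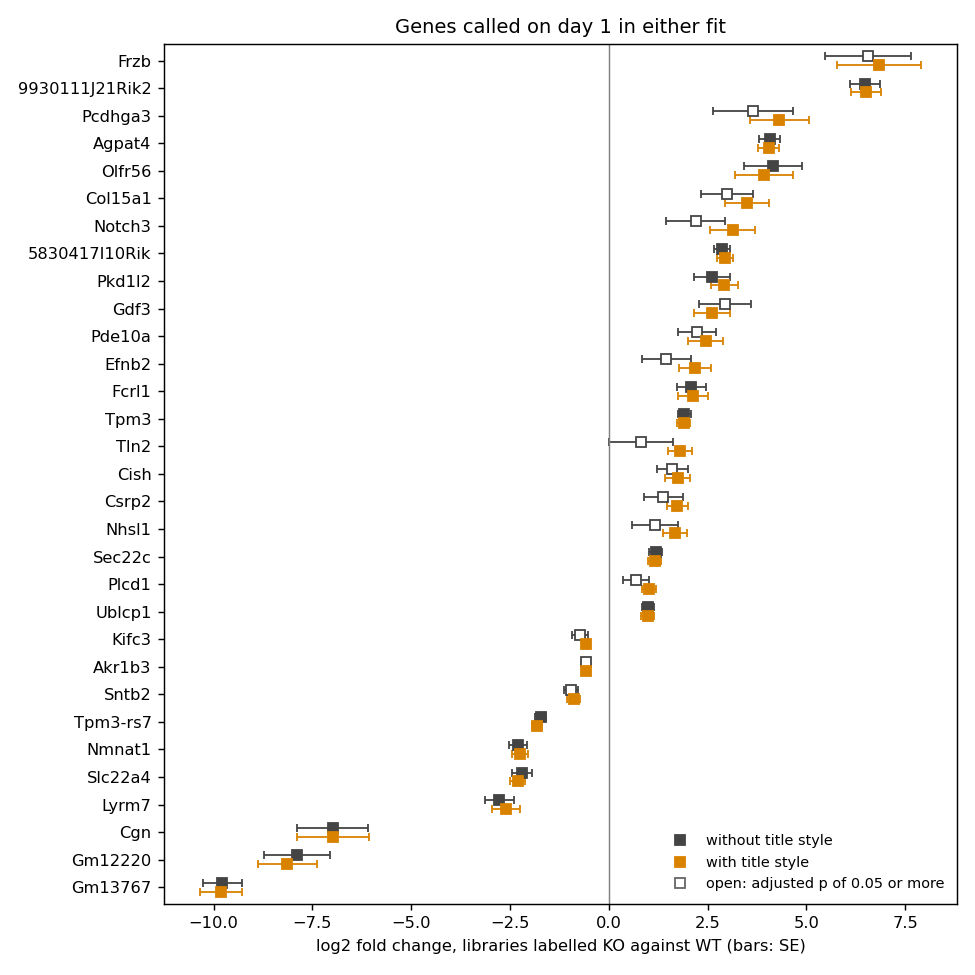
Log2 fold change between the labels on day 1, with its standard error, without (grey) and with (orange) title style in the model, for the 31 genes called in either fit (open symbols missed an adjusted p of 0.05). The 16 genes called in both fits have nearly the same value in each, whereas Notch3, Efnb2 and Tln2 have larger values with title style.

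Within 1 title style, the label difference could be read from 2 KO libraries against 1 WT library (double hyphen) and from 1 against 2 (single hyphen). The lone library of an arm was assumed to vary like the other groups. Among the double-hyphen libraries 14 genes were called, 8 higher and 6 lower, and among the single-hyphen ones 13, 9 higher and 4 lower. Called in both styles were 7 genes, 9930111J21Rik2, Agpat4, 5830417I10Rik, Tpm3, Tpm3-rs7, Slc22a4 and Gm13767. Agpat4 had log2 ratios of 3.93 and 4.15 in the double-hyphen and single-hyphen libraries, and Slc22a4 of -2.59 and -2.05. All 16 genes called without title style had the same direction in both styles. As their KO and WT libraries did not overlap on day 1, that direction was fixed beforehand and is no separate evidence.

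Genes called in 1 style alone mostly had 1 library apart. Stk4, the gene of the Hippo kinase MST1, measured 69.0 CPM in the double-hyphen WT library and 137 to 173 CPM in the other 5. Its log2 ratio was 1.30 among the double-hyphen libraries (SE 0.147, adjusted p = 0.00405) and -0.12 among the single-hyphen ones (adjusted p = 0.777), and the test of the difference between the styles gave an adjusted p = 0.0782. Pet117, a factor for the assembly of cytochrome oxidase, measured 8.13 CPM in KO library 3 and 0.0601 to 0.0833 CPM in the other 5. Tacc1, a gene of microtubule organisation, measured 31.8 CPM in KO library 3 and 92.9 to 133 CPM in the others (-1.62 among the single-hyphen libraries, adjusted p = 0.00277). Pet117 and Tacc1 were named after their values were seen.

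The pathway and marker lists held no gene that edgeR called in either fit. DESeq2 called 3 list members without title style (Mmp14, Igfbp3 and Tgtp1) and 34 with it, of 76 and 845 genes in all. The list counts below are to be read beside the shares over all genes tested. Positive log2 ratios made up 46.7% without title style and 45.5% with it. An unadjusted p under 0.05 was met by 3.88% of genes higher and 4.02% lower without title style. With it the shares were 9.84% and 4.93%. The styles differed in 23.2% of genes. The genes of RANK signalling and costimulation are the earliest step of the RANKL response. Of 20 listed genes 0 were called by edgeR in either fit, and 3 had an unadjusted p under 0.05 without title style, all lower. The median log2 ratio was -0.02, the same as over all genes, and -0.12 with title style. Tnfrsf11a, the gene of RANK itself, measured 40.4, 42.7 and 39.0 CPM in the libraries labelled KO and 49.2, 134 and 88.9 CPM in those labelled WT. The KO libraries lay close together and below every WT library, and the double-hyphen WT library was nearest to them. Its log2 ratio was -1.16 (SE 0.302, unadjusted p = 0.00174, adjusted p = 0.359), and -1.03 with title style (adjusted p = 0.144). DESeq2 called it with title style only, the 1 gene of the list that it called.

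Nfkb2 and Map3k14, the noncanonical NF-κB subunit and its kinase, were the others with an unadjusted p under 0.05. Nfkb2 measured 136, 139 and 172 CPM against 106, 381 and 298 CPM (log2 ratio -0.81, SE 0.350, adjusted p = 0.608), so that the double-hyphen WT library was the lowest of the 6 and the single-hyphen ones the highest. Map3k14 measured 32.9, 36.4 and 36.2 CPM against 41.4, 64.3 and 49.9 CPM (log2 ratio -0.56, SE 0.187, adjusted p = 0.511). Traf6, the adaptor of RANK, had a log2 ratio of -0.03 (SE 0.153) and Csf1r, the M-CSF receptor, of 0.10 (SE 0.255).

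Without the double-hyphen WT library 131 genes were called, 49 higher and 82 lower, in place of 16. Among them were Tnfrsf11a (log2 ratio -1.45, adjusted p = 0.0225), Nfkb2 (-1.19, adjusted p = 0.0449) and Fos (-2.17, adjusted p = 0.0449). With title style in that fit 58 genes were called, and these 3 had adjusted p-values of 0.0587, 0.0612 and 0.0967. The calls of these genes differed with that 1 library and with title style, and that of Tnfrsf11a with the tool too. Of the 131 genes, 33 (25.2%) differed between the styles, against 23.2% of all genes tested.

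Of 13 early transcription factors of osteoclasts 0 were called in either fit, and 1 had an unadjusted p under 0.05 without title style. The median log2 ratio was 0.03 and, with title style, -0.07. Fos, the AP-1 subunit that RANKL induces early, measured 25.4, 28.6 and 44.1 CPM in the libraries labelled KO and 28.0, 192 and 104 CPM in those labelled WT. The double-hyphen WT library lay among the KO libraries, and the other WT libraries lay well above them. The log2 ratio was -1.72 (SE 0.556, unadjusted p = 0.00755, adjusted p = 0.497), -0.05 among the double-hyphen and -1.74 among the single-hyphen libraries. Nfatc1, the factor downstream of Fos, measured 89.5, 99.2 and 115 CPM against 99.4, 108 and 134 CPM (log2 ratio -0.17, SE 0.193, adjusted p = 0.848), a difference within the spread of the libraries.

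The repressors of osteoclast differentiation, 10 genes, had a median log2 ratio of 0.33 (0.23 with title style), 8 of them positive, and 0 were called in either fit. No member passed an unadjusted p of 0.05 without title style, and 2 did with it, of which DESeq2 called the Id3 inhibitor gene. Irf8, a transcription factor of macrophages, had 337, 324 and 252 CPM against 370, 144 and 209 CPM (log2 ratio 0.34, SE 0.350, adjusted p = 0.828). The labels overlapped, with the double-hyphen WT library the highest of the 6.

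Of 14 genes of bone resorption 0 were called in either fit, and the median was -0.01 (-0.05 with title style). Mmp14, a membrane-bound matrix metalloproteinase, measured 330, 231 and 198 CPM in the libraries labelled KO and 74.5, 91.8 and 81.6 CPM in those labelled WT. All 3 KO libraries were above all WT libraries in both styles. DESeq2 called it, with an adjusted p = 0.0112, and edgeR did not. Its log2 ratio in edgeR was 1.61 (SE 0.390, unadjusted p = 0.000917, adjusted p = 0.297) and 1.63 with title style (adjusted p = 0.109), with 0.52 on day 0 and 0.06 on day 3. Itgb3, integrin β3 of the sealing zone, was the other member with an unadjusted p under 0.05, at 15.4, 17.5 and 35.5 CPM against 16.7, 7.33 and 11.9 CPM (log2 ratio 0.93, adjusted p = 0.628).

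The other resorption genes overlapped between the labels. Mmp9, a secreted gelatinase, measured 66.4, 84.1 and 243 CPM against 124, 334 and 437 CPM. Its log2 ratio was -1.19 (SE 0.632, adjusted p = 0.664), and within each style the libraries labelled KO were lower (-0.72 and -0.67). Ctsk, the collagenase cathepsin K, measured 49.1, 49.3 and 34.9 CPM against 73.7, 28.4 and 40.5 CPM (log2 ratio -0.10, SE 0.425, adjusted p = 0.967). Atp6v0d2, a proton pump subunit named after its values were seen, measured 277, 432 and 162 CPM against 818, 24.7 and 36.6 CPM (log2 ratio -0.01, adjusted p = 1.00). Its style effect, double over single, was 2.73 on the log2 scale (adjusted p = 0.00256). Calcr, the calcitonin receptor of mature osteoclasts, had 0 counts in all 6 libraries.

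The 12 cell fusion genes had the lowest median of the osteoclast lists, -0.33 (-0.35 with title style), with 10 negative log2 ratios, and 0 were called in either fit. An unadjusted p under 0.05 without title style was met by 3 of them, all lower, against 4.02% of all genes. All KO libraries lay below all WT libraries in 3 of the 12, against 5.82% of all genes. Cd44, an adhesion receptor, measured 133, 150 and 170 CPM against 191, 290 and 174 CPM (log2 ratio -0.53, SE 0.170, adjusted p = 0.492), and the protease gene Adam8 559, 638 and 707 CPM against 941, 1250 and 806 CPM (-0.66, SE 0.239, adjusted p = 0.563). Ocstamp, a membrane protein needed for fusion, was at 0.449, 0.358 and 2.71 CPM against 0.583, 5.95 and 7.58 CPM (-2.02, SE 0.854, adjusted p = 0.601), and its relative Dcstamp at 0.128, 0.358 and 1.88 CPM against 1.42, 1.68 and 3.72 CPM (-1.54, SE 0.747, adjusted p = 0.642). Both were higher in the single-hyphen than in the double-hyphen libraries (adjusted p = 0.000378 for Ocstamp and 0.0327 for Dcstamp). On day 0 the log2 ratios of Cd44, Ocstamp and Dcstamp were 0.48, 1.58 and 1.37.

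**Figure D3:**
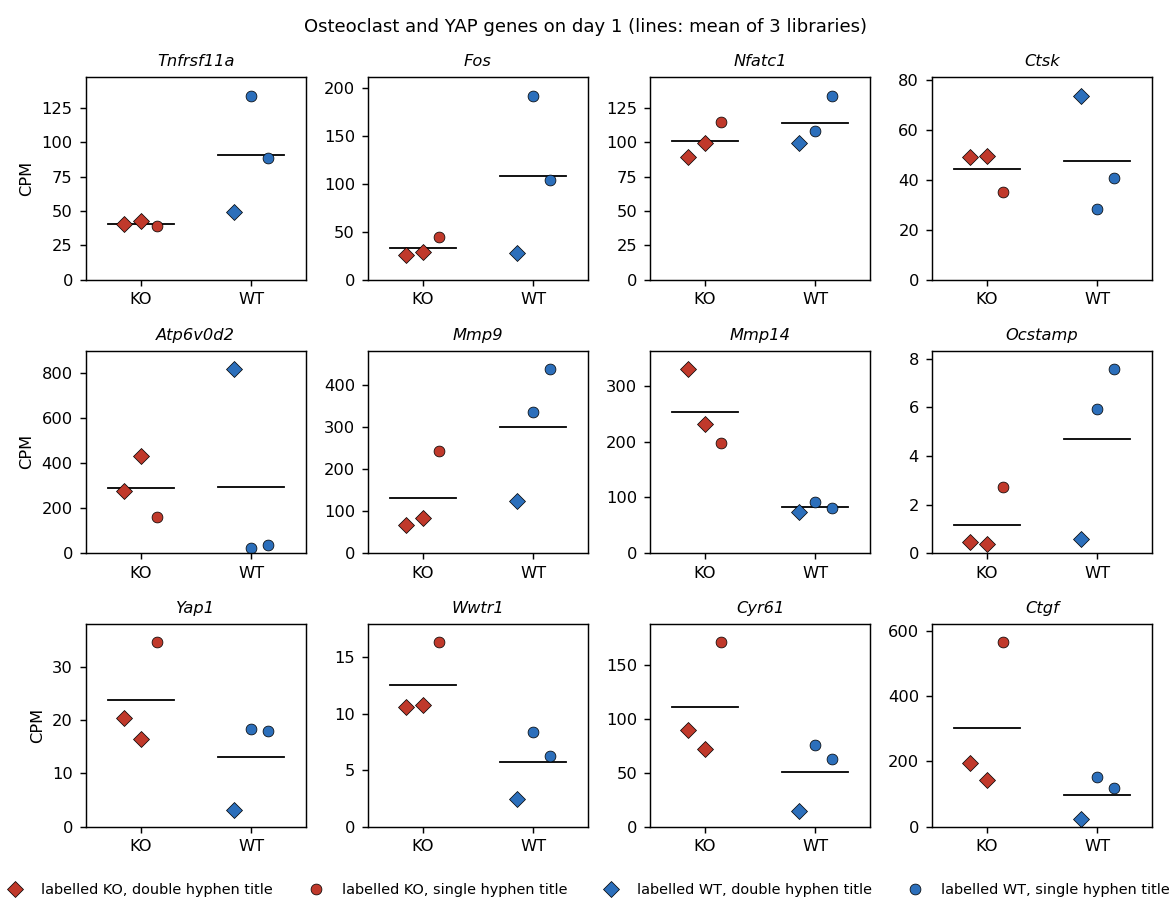
CPM of 12 genes in each of the 6 day 1 libraries (red KO, blue WT, diamonds double-hyphen and circles single-hyphen titles), with a line at the mean of each label. In Fos, Nfatc1, Mmp9 and Ocstamp the blue diamond lies among the red points. Mmp14 and Wwtr1, higher in red, and Tnfrsf11a, lower in red, have no overlap. In the YAP genes of the last row the blue diamond is the lowest point.

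The Hippo pathway was divided into its kinases and adaptors, which hold YAP back, and its effectors and targets. Of 22 kinases and adaptors 0 were called in either fit. The median was 0.02 (0.06 with title style), with 12 positive, and 1 had an unadjusted p under 0.05 without title style, against 9 with it, 7 of them higher. DESeq2 called 0 without title style and 3 with it, Ajuba, Amotl1 and Ptpn14, all higher. Stk4 had a log2 ratio of 0.39 over all 6 libraries (SE 0.308, adjusted p = 0.761). Lats1, a kinase that phosphorylates YAP, measured 53.4, 54.0 and 53.5 CPM against 55.2, 55.1 and 49.2 CPM (0.01, SE 0.0833, adjusted p = 0.978), with no separation of the labels. Nf2, which encodes the upstream regulator merlin, measured 82.9, 87.0 and 77.7 CPM against 97.9, 113 and 95.7 CPM (-0.31, SE 0.113, adjusted p = 0.563), with each KO library below each WT library.

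All 8 genes of YAP, TAZ and TEAD effectors had positive log2 ratios, and 0 were called in either fit. The median was 1.08 without title style and 1.93 with it, against -0.02 and -0.03 over all genes, and 2 and 7 members had an unadjusted p under 0.05. The median was 0.61 without KO library 3 and 0.66 without the double-hyphen WT library. DESeq2 called 0 of the 8 without title style and 5 with it. Yap1 measured 20.3, 16.4 and 34.6 CPM in the libraries labelled KO and 3.16, 18.3 and 17.9 CPM in those labelled WT. The double-hyphen WT library was far below the other 5, and the single-hyphen WT libraries lay between KO libraries 1 and 2. The log2 ratio was 0.85 (SE 0.796, adjusted p = 0.801), and 1.78 with title style (SE 0.616, adjusted p = 0.19). Wwtr1, the gene of TAZ, measured 10.6, 10.8 and 16.3 CPM against 2.42, 8.41 and 6.20 CPM (1.14, SE 0.751, adjusted p = 0.722), with no overlap. The double-hyphen WT library was the lowest of the 6 in 7 of the 8 genes, against 23.1% of all genes.

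Among 21 YAP1 targets tested, 15 had positive log2 ratios in each fit, with a median of 0.72 without and 1.16 with title style, and of 0.26 without KO library 3. None was called by edgeR in either fit, and an unadjusted p under 0.05 was met by 2 higher and 1 lower without title style and by 10 higher with it. DESeq2 called 1 without and 8 with title style. Cyr61 measured 89.5, 72.1 and 171 CPM against 14.3, 75.7 and 62.3 CPM (1.12, SE 0.865, adjusted p = 0.753, and 2.24 with title style, adjusted p = 0.109), and Ctgf 195, 144 and 565 CPM against 22.2, 153 and 118 CPM (1.63, SE 0.995, adjusted p = 0.698, and 2.66 with title style, adjusted p = 0.109). Both, which encode secreted matricellular proteins, had their lowest value in the double-hyphen WT library and their highest in KO library 3. Igfbp3, which binds insulin-like growth factors, measured 6.15, 22.4 and 10.7 CPM against 0.333, 0.180 and 0.413 CPM, well apart in each style (5.39, SE 1.38, adjusted p = 0.359, and 6.35 with title style, adjusted p = 0.0881). The effectors and targets are genes that stromal cells express as well. The effector sums and the stromal marker sums below were both highest in KO library 3 and lowest in the double-hyphen WT library. The target sums were also highest in KO library 3, but the double-hyphen WT library, at 1460 CPM, lay between the single-hyphen ones (1490 and 1280 CPM). It was the lowest of the 6 in 11 of the 21 targets. The part of stromal cells in these values was not tested.

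**Figure D4:**
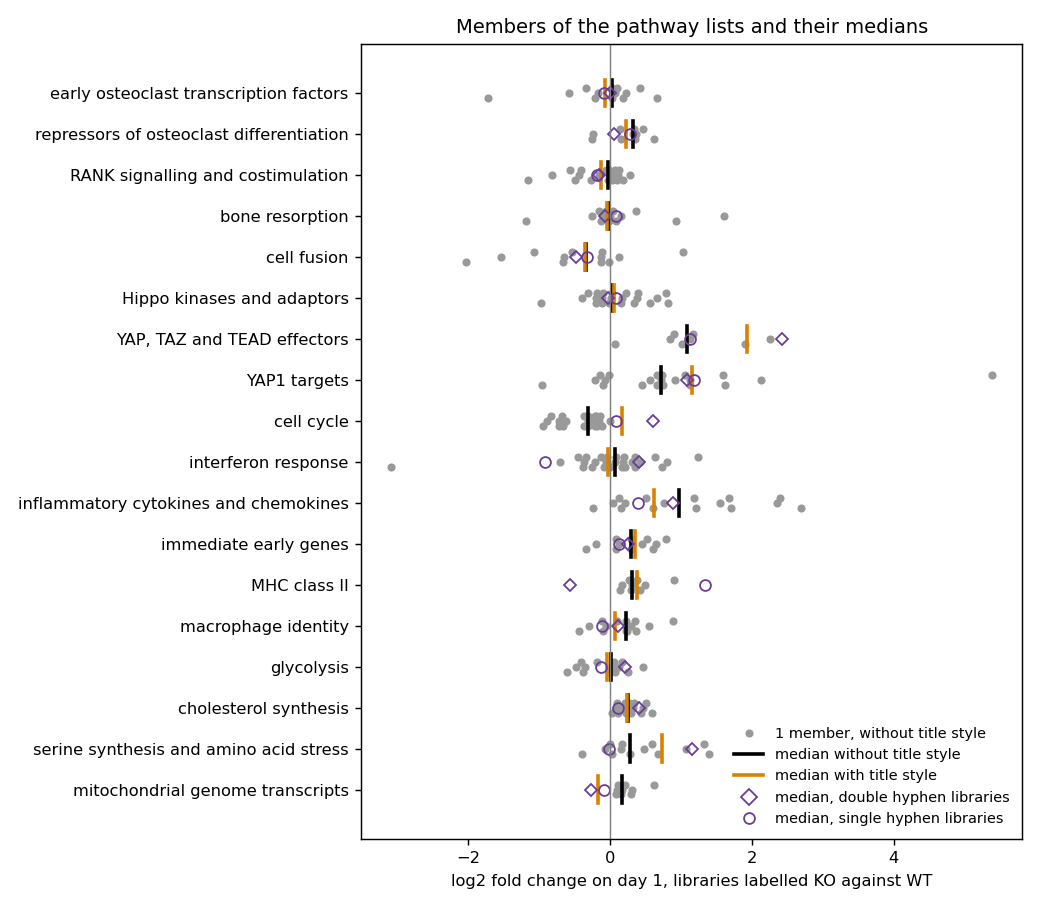
Log2 fold change between the labels on day 1 for each member of the 18 pathway lists (grey points), with the median without title style (black line), with it (orange line), and within the double-hyphen (open diamond) and single-hyphen libraries (open circle). Without title style YAP, TAZ and TEAD effectors and inflammatory cytokines have the highest medians, and the interferon, MHC class II and cell cycle lists have medians of opposite sign or unlike size in different fits.

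Inflammatory cytokines and chemokines had a median log2 ratio of 0.98 (0.62 with title style), with 15 of 16 members positive without title style and 5 at an unadjusted p under 0.05, all higher, and 0 called by edgeR in either fit. The median was 0.33 without KO library 1 and 1.87 without the double-hyphen WT library. DESeq2 called 0 without title style and 2, Il1b and Nos2, with it. Il1b, which encodes interleukin-1β, measured 3.78, 3.79 and 2.29 CPM against 0.666, 0.240 and 0.964 CPM (2.40, SE 0.741, adjusted p = 0.482). Nos2, the inducible nitric oxide synthase, was at 1.28, 0.644 and 1.32 CPM against 0.0833, 0.12 and 0.276 CPM (2.69, SE 1.03, adjusted p = 0.569). Each KO library was above each WT library in both. The chemokine gene Ccl5 measured 84.8, 23.3 and 4.03 CPM against 8.33, 4.45 and 9.23 CPM (2.35, SE 0.690, adjusted p = 0.454). KO library 1 carried that difference, and KO library 3 was below every WT library.

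The 27 interferon response genes showed no common direction. Their median was 0.07 (-0.02 with title style), 14 were positive, and 0 were called, with Tgtp1, described above, as the member with the smallest adjusted p. Each direction held 1 gene with an unadjusted p under 0.05, Tgtp2 higher and Tgtp1 lower. The summed level was 5790, 2980 and 2150 CPM in the libraries labelled KO and 3510, 3630 and 3690 CPM in those labelled WT, so that the KO libraries lay on both sides of the WT libraries. The list median was -0.46 without KO library 1 and 0.35 without KO library 3, and 0.41 among the double-hyphen and -0.91 among the single-hyphen libraries. The 12 immediate early genes had a median of 0.30 (0.35 with title style) with 10 positive, and the 9 MHC class II genes one of 0.31 (0.38), all positive, but -0.56 among the double-hyphen and 1.34 among the single-hyphen libraries. No gene of either list was called by edgeR or DESeq2, and none had an unadjusted p under 0.05 without title style.

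Cell cycle genes were a list whose median changed sign with the model. Without title style 22 of 23 had negative log2 ratios (median -0.31), and with it 14 were positive (median 0.18), with 0 called in either fit and 2 at an unadjusted p under 0.05 without title style, both lower. Without KO library 3 the median was -1.1, and without the double-hyphen WT library -0.75. Of the 23, 20 differed between the styles, all higher in the single-hyphen libraries, against 23.2% of all genes differing in either direction. Mki67, a marker of dividing cells, measured 82.5, 70.0 and 279 CPM against 50.8, 172 and 205 CPM (0.01, SE 0.513). Pcna, the sliding clamp of DNA replication, had all KO libraries below all WT libraries, at 85.2, 93.8 and 114 CPM against 122, 211 and 136 CPM (-0.68, SE 0.229, adjusted p = 0.517).

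Of the metabolic lists 0 genes were called by edgeR in either fit, and DESeq2 called 1, Phgdh, with title style. The 16 genes of cholesterol synthesis were all positive without title style, with a median of 0.26 (0.25 with title style, 12 positive), and 3 had an unadjusted p under 0.05. Hmgcs1, which makes HMG-CoA, measured 250, 230 and 184 CPM against 173, 147 and 144 CPM (0.52, SE 0.219, adjusted p = 0.605), and Insig1, a sterol sensor, 176, 177 and 186 CPM against 160, 127 and 142 CPM (0.33, SE 0.132, adjusted p = 0.582). Both had no overlap between the labels. The 14 glycolysis genes had a median of 0.01 (-0.04 with title style), with 1 higher and 1 lower at an unadjusted p under 0.05. Pkm, pyruvate kinase, measured 1740, 1550 and 1620 CPM against 1560, 2750 and 2480 CPM (-0.47, SE 0.206, adjusted p = 0.619), with the double-hyphen WT library at the level of the KO libraries. The 13 genes of serine synthesis and amino acid stress had medians of 0.28 and 0.74 with 2 at an unadjusted p under 0.05 without title style, and Phgdh, the first enzyme of serine synthesis, measured 26.6, 16.9 and 21.3 CPM against 3.41, 13.6 and 13.7 CPM (1.07, adjusted p = 0.713). The 9 mitochondrial transcripts had medians of 0.17 and -0.17 and all differed between the styles.

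The cells carried the markers of macrophages in every library. The 8 macrophage markers summed to 16700, 16100 and 9710 CPM in the libraries labelled KO and 18400, 10300 and 12300 CPM in those labelled WT, with Csf1r at 2200 to 4130 CPM and Cd68 at 1310 to 2520 CPM. The 15 genes of macrophage identity had a median log2 ratio of 0.22 (0.07 with title style), and edgeR called 0, with 0 at an unadjusted p under 0.05 without title style.

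Markers of other cells were also present and were unevenly spread. The 15 stromal or osteoblast markers summed to 3680, 2490 and 8360 CPM in the libraries labelled KO and to 284, 2830 and 2490 CPM in those labelled WT. KO library 3 was the highest and the double-hyphen WT library the lowest by far. The 13 of them that were tested had positive log2 ratios, with a median of 1.46 (2.84 with title style), and edgeR called 0 in either fit. In 9 of the 13 all KO libraries lay above all WT libraries, against 6.83% of all genes. An unadjusted p under 0.05 was met by 2 without title style and 9 with it, all higher. Over all genes the shares were 3.88% and 9.84%. DESeq2 called 0 without and 9 with title style, all higher. Col1a1, a chain of type I collagen, measured 1370, 851 and 3390 CPM against 73.5, 1290 and 1080 CPM (1.20, SE 1.1, adjusted p = 0.797, and 2.85 with title style, adjusted p = 0.13). Of the osteoblast markers, Bglap2 was at 0 in all 6 libraries and Bglap had 1 count in 1 of them. The stromal sums had the same extremes as Yap1, Cyr61 and Ctgf and were higher in the KO than in the WT libraries of each style.

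The 11 neutrophil markers summed to 1540, 2120 and 3380 CPM in the libraries labelled KO and 2300, 403 and 540 CPM in those labelled WT, with a median log2 ratio of 1.16 (1.18 with title style), 0 called and 1 at an unadjusted p under 0.05. Here the double-hyphen WT library was within the range of the KO libraries, and the median was 0.63 without KO library 3 and 2.13 without the double-hyphen WT library. The 8 tested of the 10 B cell markers had a median of 0.29 (0.20), which was -0.43 without KO library 3 and 2.52 without the double-hyphen WT library, and Igkc, an immunoglobulin chain, reached 188 and 193 CPM in KO libraries 1 and 2 and 0.620 to 28.3 CPM in the other 4. The T or NK cell sum was 95.7 to 229 CPM and was nearly all Cd4, with Cd3e at 0 in every library. Erythroid markers were under 1 CPM in the 3 double-hyphen libraries and at 17.2 to 18.4 CPM in the 3 single-hyphen ones. Mast cell, basophil or eosinophil markers summed to 13.9, 16.1 and 53.4 CPM against 29.1, 3.49 and 5.23 CPM, and dendritic cell markers to 61.8, 87.2 and 196 CPM against 168, 23.6 and 70.0 CPM, with KO library 3 the highest in both. No gene of these lists was called by edgeR in either fit, and DESeq2 called Ebf1 and Zbtb46, of the B cell and dendritic cell lists, with title style. The part of such cells in the other differences was not tested.

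**Figure D5:**
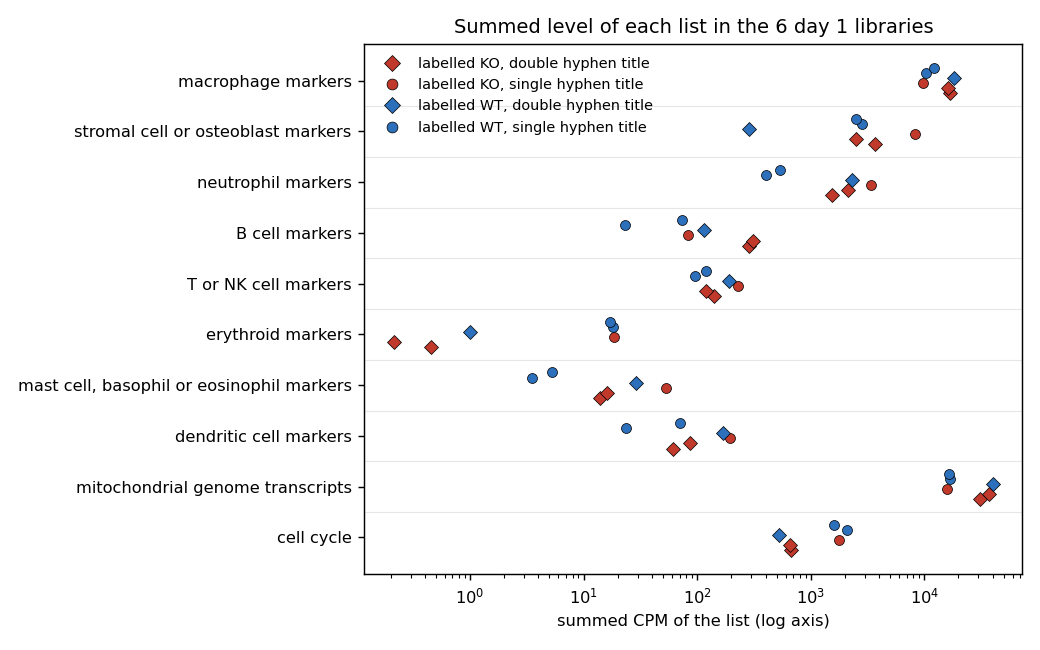
Summed CPM of 8 lists of cell type markers, of the mitochondrial transcripts and of the cell cycle genes in each of the 6 day 1 libraries (red KO, blue WT, diamonds double-hyphen and circles single-hyphen titles), on a log axis. Erythroid, mitochondrial and cell cycle sums separate diamonds from circles, and the blue diamond is far below the others for stromal markers.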

How the data were processed

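RNA was sequenced from 18 libraries of bone marrow-derived macrophages in 6 groups of 3, grouped by the label and day in their titles. The authors deposited raw read counts and FPKM values per gene in 1 table, and per the labels StringTie was used with GRCm38.p4 (mm10). The paper's methods name Ballgown for FPKM, and the aligner and the counter are not given in the sources used here. Counts were tested as deposited, and the FPKM values, which the authors scaled by length and depth, entered no test. The table had 0 columns of no sample, 34745 genes, 13394 of them at 0 in every library, and 59 symbols on more than 1 line.

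The quasi-likelihood test of edgeR 4.0.16 (R 4.3.3, limma 3.58.1) was fitted to all 18 libraries as 6 groups, so that all groups share 1 estimate of the spread (12 residual degrees of freedom, 11 with title style, 8 within style). Genes were filtered with filterByExpr, scaled by TMM, and adjusted by Benjamini-Hochberg over the 14241 genes tested. Calls needed an adjusted p under 0.05. Title style was added as a covariate in a separate fit. Folds against a group at 0 used a floor of 3 counts in each library, which covers counting error only. DESeq2 1.42.0 was an alternative, beside other scalings, filters, libraries, a replicate block and leaving out each library. The test was checked on simulated counts with a smaller spread than these data and no title style effect. That check does not show how the test performs on these data. Figures were drawn with matplotlib 3.10.9.

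The genes named were Zmat1 and its neighbours within 1 Mb, the genes of the quantitative PCR of the study, all genes called without title style, up to 10 in each direction called with it alone, the first 3 tested genes and the 3 with the smallest p of each list, Tpm3-rs7, and genes overlapping a called one. Genes outside this rule are Pet117, Tacc1, Atp6v0d2, Nhsl1, Plcd1 and the defining markers. The comparison, the genes and the lists were chosen with earlier results of these data known. Gene lists are described by counts and medians. Many genes that the rule names are not reported here.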

Additional observations from a re-analysis of the deposited data

Results flagged for a closer look

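Uhmk1, a kinase gene on chromosome 1 (170193420 to 170215397), was the 1 gene whose label difference was not the same in the 2 title styles at an adjusted p under 0.05 (edgeR, label by style term). It measured 170, 182 and 171 CPM in the libraries labelled KO, 48.6 CPM in the double-hyphen WT library, and 186 and 175 CPM in the single-hyphen WT libraries. The log2 fold change was 1.86 among the double-hyphen and -0.08 among the single-hyphen libraries, a difference of 1.94 (SE 0.196, adjusted p = 0.012). It rests on the 1 double-hyphen WT library, and its cause was not tested.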

How the results depend on the processing

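Without title style, 16 genes were called, and DESeq2's Wald test called 76, the 6 day 1 libraries alone 3, title style as a covariate 31, and the study's threshold 670. Leaving out 1 day 1 library gave 13 to 131, the highest without the double-hyphen WT library. With title style, 31 genes were called, and DESeq2 called 845, the 6 day 1 libraries alone 52, the 12 libraries of days 0 and 1 12, no title style 16, and the replicate block with title style 15. Leaving out 1 library there gave 14 to 58, the highest again without the double-hyphen WT library. Where a left-out library leaves 1 library of a style in a group, it is assumed to vary like the others.

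The replicate block without title style called 13. Same-numbered KO and WT libraries correlated in their deviations from the group means at -0.195, -0.278 and 0.231. Only the last of these pairs shared a title style. Pairs of unlike number ran from -0.429 to 0.389 and were likewise positive only within a style. The check therefore cannot show whether the numbers mark pairs. Over 16 alternatives no called gene changed sign, and Agpat4, 9930111J21Rik2 and 5830417I10Rik lost no call. Lyrm7, Slc22a4, Tpm3, Nmnat1, Tpm3-rs7, Cgn and Gm13767 lost theirs only with the 6 day 1 libraries alone, and Olfr56, Pkd1l2, Ublcp1 and Fcrl1 lost theirs in 7, 8, 8 and 9 alternatives. The replicate block ended the call of Gm12220 and of Pkd1l2 and Ublcp1. Of 188 other named genes, 66 changed sign and 22 were called in at least 1 alternative, and 14 of 26 list medians changed sign. The second line of Pcdhga8, at low counts and overlapping Pcdhga3, went from -1.1 to 5.46 on the log2 scale without single-hyphen WT library 1 (-1.68 to 5.46 over the libraries left out). The causes were not tested.

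Depth limits genes near the floor of 3 counts, among them Frzb, Pde10a, Trim46 and Dcstamp. Title style is uneven over the labels and was not assigned a meaning by the sources used here.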
